A study of Mus musculus with 3 samples.

Results

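The genes described here are brightly expressed genes of long-term hematopoietic stem cells (LT-HSCs) on single-color microarrays. An array labeled as a double knockout of Atm and p38α (Atmp38dKO) was compared with a wild-type (WT) array. The signal of the p38α gene does not bear out that label, as described below. A probe was taken as bright if its processed signal, in the scanner's intensity units, reached 500 on at least 1 of the 2 arrays and if it was flagged as well above background on both. Of 56605 noncontrol probes, 39968 were well above background on both arrays and 5488 were bright. The 5488 probes represented 4722 genes, of 27111 well above background on both arrays and 36994 on the array in all, and each gene was represented by its brightest probe. Because the same signals chose the genes and measured the differences, that is, the members were chosen by the very intensities compared, every difference below is a description of 2 arrays, and no test was made.

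LT-HSCs of 3 genotypes were sorted from bone marrow of C57BL/6J mice, and total RNA of each genotype was labeled with Cy3 and hybridized to 1 Agilent array. Mice called AtmsKO carried CAG-CreERT2 and Atm flox/flox, and mice called Atmp38dKO carried CAG-CreERT2, Atm flox/flox and p38α flox/flox. CAG is a broadly active promoter, and CreERT2 is a Cre recombinase that tamoxifen activates, so the deletion was not limited to blood cells. WT mice were the controls, which had no Cre. Per the methods, controls carried Atm flox/flox, p38α flox/flox or both, and received tamoxifen too. The methods do not say which of these gave the WT array. Sample labels give mice 11 weeks old, whereas the series text gives tamoxifen at about 5 weeks of age and analysis 4 weeks later. The label of the sort is CD150+, CD48-, Flt3- and CD34- within the lineage-, Sca-1+, c-Kit+ (LSK) fraction, the methods add CD41-, and the series text names only CD34- and Flt3-. Animals of both sexes were used, and how many mice contributed to each RNA is not given in the sources used here. With 1 array per genotype there was no replicate, so differences between mice, sorts and genotypes cannot be told apart. Fewer cells that express a gene and less RNA of that gene per cell cannot be told apart either.

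By way of background, ATM is a kinase that is activated by DNA double-strand breaks, and p38α, encoded by Mapk14, is a MAP kinase that responds to cytokines and to oxidative, osmotic and heat stress. The kinases p38, ERK and JNK, directly or through kinases downstream of them, phosphorylate factors such as CREB, ATF2 and the serum response factor partners. These factors switch on immediate early genes within minutes and without new protein synthesis. Products of immediate early genes include the AP-1 factors, the Egr and Nr4a factors, and inhibitors of the same signal, among them the Dusp phosphatases that inactivate MAP kinases and Zfp36, which destabilizes AU-rich mRNAs. Heat shock genes are a separate stress program, in which heat shock factor 1 binds repeats of the letters GAA and its complement TTC and raises chaperones that refold proteins.

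The targeted genes were examined first. The bright Mapk14 probe (mm9 chr17:28873965-28874024) read 469 for WT, 558 for AtmsKO and 616 on the array labeled Atmp38dKO, a log2 difference of 0.18 from WT after scaling. A second probe (chr17:28885290-28885349) read 295, 260.4 and 345, a log2 difference of 0.01. Mapk14 signal was therefore not lower on the Atmp38dKO array at either probe, so that the label is not borne out by this signal. Whether the probes lie outside the deleted part of the gene is not given in the sources used here, and how complete the deletion was in these cells was not tested. Atm was not bright. Its 2 probes read 88.8 and 87.0 on WT, 16.3 and 23.9 on AtmsKO, and 49.0 and 86.5 on Atmp38dKO, so that the log2 differences of Atmp38dKO from WT were -1.07 and -0.22. Directions stated for Atmp38dKO below are those of the array so labeled.

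The arrays as a whole were compared next. The 75th percentile of the noncontrol probes was 102 on WT and 118 on Atmp38dKO, 73.3% and 77.7% of probes were well above background, and no spot was saturated. Of the sort markers, Kit read 2652 and 3248 and Ly6a (Sca-1) 488 and 559 on the WT and Atmp38dKO arrays, and Slamf1 (CD150) read 147 and 142. Cd48 and Flt3 were dim, at 18.01 and 32.6 and at 79.4 and 101, but Cd34, whose protein the sort selected against, was bright at 1694 and 2185. Marker lists of 8 mature or stromal cell types held 1 to 5 bright genes each. The scaled log2 difference of their summed signal ran from -0.19 for the 19 monocyte genes to 0.36 for the 17 T and NK cell genes, but a few bright genes carry these sums. Itgam (33133 and 33895), Csf3r (24685 and 27141), Csf1r (2529.5 and 2492) and S100a9 (1659.5 and 2375) were bright on both arrays. They were the only bright ones in the lists of 18 granulocyte genes (2 bright) and 19 monocyte genes (2 bright). Other members were dim, such as Elane (42.4 and 93.8) and Cd14 (14.0 and 16.8), and a second Csf1r probe read 59.1 and 59.9. Fcgr1, Mrc1, Rag1, Gzmb and Cdh5 were above background on neither array. Cd2 of T cells and C1qc of macrophages were above background on Atmp38dKO only, at 180 against 3.36 and 44.4 against 3.26 on WT. Other members of the same lists were above background on WT only, including Cd8a (7.57 against 4.77 on Atmp38dKO), Adgre1 (20.1 against 5.46) and Ly86 (9.05 against 1.02). Of the monocyte genes 15 were above background on WT and 14 on Atmp38dKO, and of the T and NK cell genes 14 and 15. The dimmer erythroid genes were higher in 12 of 15, with a median of 0.35 against 0.02 over all dimmer genes. Of these 15 genes 3 were at least 2-fold higher and 0 at least 2-fold lower, against 3.46% and 3.92% of all dimmer genes. Alas2 of heme synthesis read 6.50 and 26.3 (1.80), although the erythroid sum differed by 0.09. Xist, expressed from the inactive X of female cells, read 2884, 1789 and 1830 on WT, AtmsKO and Atmp38dKO, and Y-linked Kdm5d read 1106, 1049.8 and 1593, a log2 difference of -0.87 and 0.31 for Atmp38dKO. The other Y-linked genes were dim and differed in direction, with Ddx3y at 55.1, 70.2 and 50.2 (-0.35), Eif2s3y at 116, 102 and 161 (0.25) and Uty at 37.0, 56.6 and 48.6 (0.18). The part of cell composition or sex in the differences below was not tested.

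Most bright genes differed little between the genotypes. Each log2 difference is the scaled signal on Atmp38dKO minus that on WT. The median was -0.02, the SD over the 4722 genes was 0.29, and 95% of the genes lay between -0.58 and 0.50. The genes well above background that were not bright had an SD of 0.57, and 3.46% of these were at least 2-fold higher and 3.92% lower. Over all 27111 genes well above background the shares were 2.94% and 3.35%. At least 2-fold differences were found for 24 bright genes that were higher (0.508% of bright genes) and 31 that were lower (0.657%). At 1.5-fold there were 70 higher and 115 lower, at 3-fold 3 and 7, and at 4-fold 1 and 5.

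The counts in the 2 directions were next divided by signal. Of the bright genes, 4104 reached the limit on both arrays, and of these 2 were at least 2-fold higher (0.0487%) and 17 at least 2-fold lower (0.414%). A further 530 reached it on Atmp38dKO only, which held 22 of the 24 higher genes (4.15%), and 88 on WT only, which held 14 of the 31 lower genes (15.9%). The limit acts on the unscaled signal, so genes that passed on a single array were chosen toward that direction, and these last counts carry no weight. Below a mean signal of 500 there were 16 higher and 7 lower genes, and between 500 and 1000 there were 7 and 8, so that both directions occurred among the dimmer members. Among genes with a mean signal between 2000 and 5000, 10 of 827 were at least 2-fold lower and 0 higher, and above 10000 the counts were 2 and 0 of 493. The median moved with signal as well, from 0.01 between 500 and 1000 to -0.12 above 10000. Just inside the limit lay probes of 9430083A17Rik (378 on WT and 500 on Atmp38dKO) and Herc1 (409 and 500.1), and just outside lay probes of Pheta2 (246 and 499.995) and Zfp24 (364 and 499.96), with log2 differences of 0.19, 0.07, 0.81 and 0.24.

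**Figure D1:**
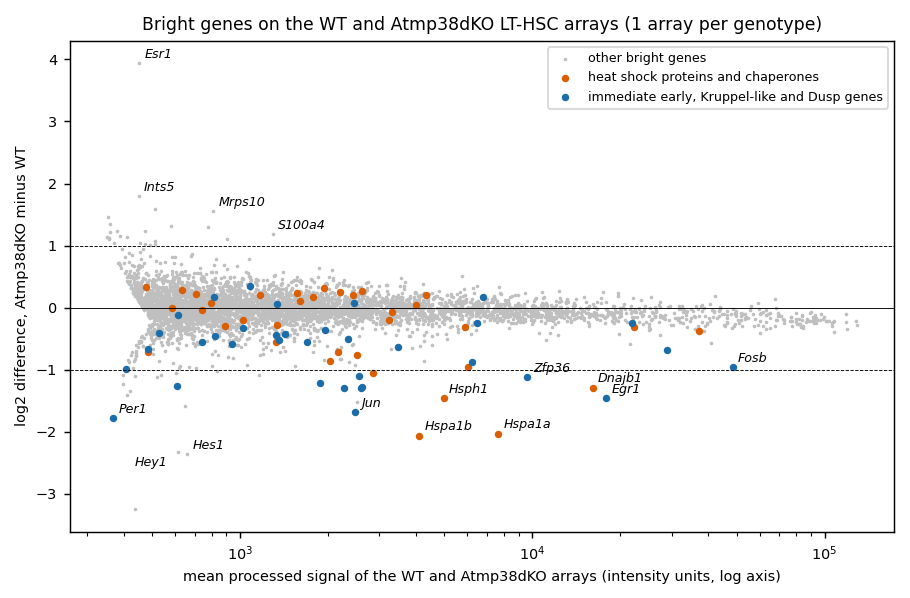
Log2 difference between the Atmp38dKO and WT arrays (vertical axis) against mean processed signal (horizontal log axis, intensity units) for the 4722 bright genes, each point 1 gene, with dashed lines at 2-fold. Genes that reached the limit on a single array form the wedges at the left edge, and above a mean signal of 2000 the points beyond the lower dashed line are mostly immediate early genes (blue) and heat shock genes (orange).

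Repeated measurements on the same arrays gave 2 estimates of technical error. For 256 bright probes printed 8 or more times on both arrays, the SD of a log2 difference taken from 1 spot per array had a median of 0.07 and a maximum of 0.20. A second bright probe at another position was present for 575 genes, and its difference departed from that of the brightest probe with an SD of 0.28. Where the brightest probe differed by at least 1.5-fold, the second probe lay in the same direction in 17 of 17 genes (exact 95% binomial interval, 80.5% to 100%), 15 of them lower and 2 higher. For 93 genes with a first difference of 1.2 to 1.5-fold the share was 73.1% (62.9% to 81.8%), and for 465 genes below that it was 60.6% (56.0% to 65.1%). Thus the direction of differences below 1.5-fold was often not repeated by a second probe. Past 1.5-fold the direction was repeated, but the size less often. The second probe itself differed by at least 1.5-fold in 9 of the 17 genes, in 9 of the 15 lower and 0 of the 2 higher. Glul (-0.93 and -0.17) and Tra2b (-0.62 and -0.06) differed far less at the second probe. The genes with paired differences past 1.5-fold included Hsph1 (-1.46 and -1.87), Dnajb4 (-1.05 and -0.99), Hspa5 (-0.95 and -1.15), Hsp90aa1 (-0.76 and -0.85) and Jund (-0.68 and -0.86). Pairs of probes share the hybridization and the RNA, and do not stand for further mice.

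Immediate early genes were lower on the Atmp38dKO array as a group. Of 39 listed genes 22 were bright, and of these 8 were at least 2-fold lower, 0 were at least 2-fold higher and 20 were below 0, against 31, 24 and 2539 of all 4722 bright genes. Their median log2 difference was -0.61, compared with -0.02 over all bright genes. Among the 19 that reached the limit on both arrays, 6 were at least 2-fold lower and the median was -0.55. The 17 dimmer members, all well above background, had a median of -0.35, with 3 at least 2-fold lower and 0 higher. The 22389 dimmer genes of all kinds had a median of 0.02, with 3.92% at least 2-fold lower and 3.46% higher.

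The AP-1 factors, which pair Fos and Jun proteins on DNA, held 7 bright genes, 6 of them lower. Jun signal was 3652 on WT, 2740.1 on AtmsKO and 1318 on Atmp38dKO, which was 3.21-fold lower than WT (log2 difference -1.68). Fos read 3323, 2559 and 1801 in the same order (-1.10). Fosb read 60695, 54723 and 36225 (-0.96), and its second, dim probe read 267, 170.0 and 119 (-1.38). In all 3 genes the Atmp38dKO array was the lowest and the AtmsKO array lay near WT, at scaled differences of -0.34, -0.30 and -0.07. Jund, a more stably expressed member, differed by -0.68, and Fosl2 by -0.56 with an AtmsKO signal above both (1894, 3185 and 1496). Junb, at 22205, 19933 and 21833, and the small Maf partner Mafg differed by -0.24 and 0.06, both less than the SD between probes of a gene.

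The zinc finger factor Egr1, an early target of ERK and serum response factor, read 25186, 20033 and 10604 on WT, AtmsKO and Atmp38dKO (-1.46, 2.76-fold lower). The orphan nuclear receptor Nr4a1 read 3551, 3062 and 1702 (-1.28), whereas Nr4a2 read 1060.2, 1224 and 983 (-0.32). Early response proteins spanned a wider range. The circadian repressor Per1 read 549.6, 410.3 and 186 at its bright probe (-1.78), but 396, 350.0 and 366 at a second probe (-0.33), so the size of its difference depended on the probe. Ier3 read 824, 557 and 398 (-1.26), and the salt-inducible kinase Sik1, which restrains CREB coactivators, read 2507, 2327 and 1261 (-1.21). Csrnp1, Ier5, Ier2, Btg1 and Myc were lower by less than 2-fold, with log2 differences from -0.67 to -0.37, and Srf, the serum response factor itself, was 0.35 higher (876, 944 and 1294). Of the RNA decay factors, Zfp36 read 12556, 12847 and 6698 (-1.12), and Zfp36l1 and Zfp36l2 differed by -0.51 and -0.25.

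Krüppel-like factors and MAP kinase phosphatases, families with several early response members, were examined in the same way. Klf4, a factor that limits proliferation, read 3529, 2197 and 1670.2 on WT, AtmsKO and Atmp38dKO (-1.29), and Klf6 read 7607, 5849 and 4830.2 (-0.87). The 7 bright Krüppel-like genes had a median of -0.42, and Klf2, which keeps lymphoid and endothelial cells quiescent, was the single member above 0 (5907, 4084 and 7691; 0.17). The 7 dimmer members did not share this direction, 4 being higher, with a median of 0.14. Of the phosphatases Dusp2, which acts on nuclear ERK and p38, read 3076, 2525 and 1463 (-1.29). Dusp5, specific for nuclear ERK, read 516, 364 and 302 (-0.99) at its bright probe but 47.6, 42.1 and 48.9 at a dim one (-0.17), so its size depended on the probe. Dusp1, which inactivates p38 and JNK, read 3977, 3485 and 2979 (-0.63). Dusp6 and Dusp4 differed by 0.08 and 0.17, so that 4 of 6 bright phosphatase genes were lower and the median was -0.61. Of the 8 dimmer ones 5 were lower and 0 at least 2-fold lower, with a median of -0.08.

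**Figure D2:**
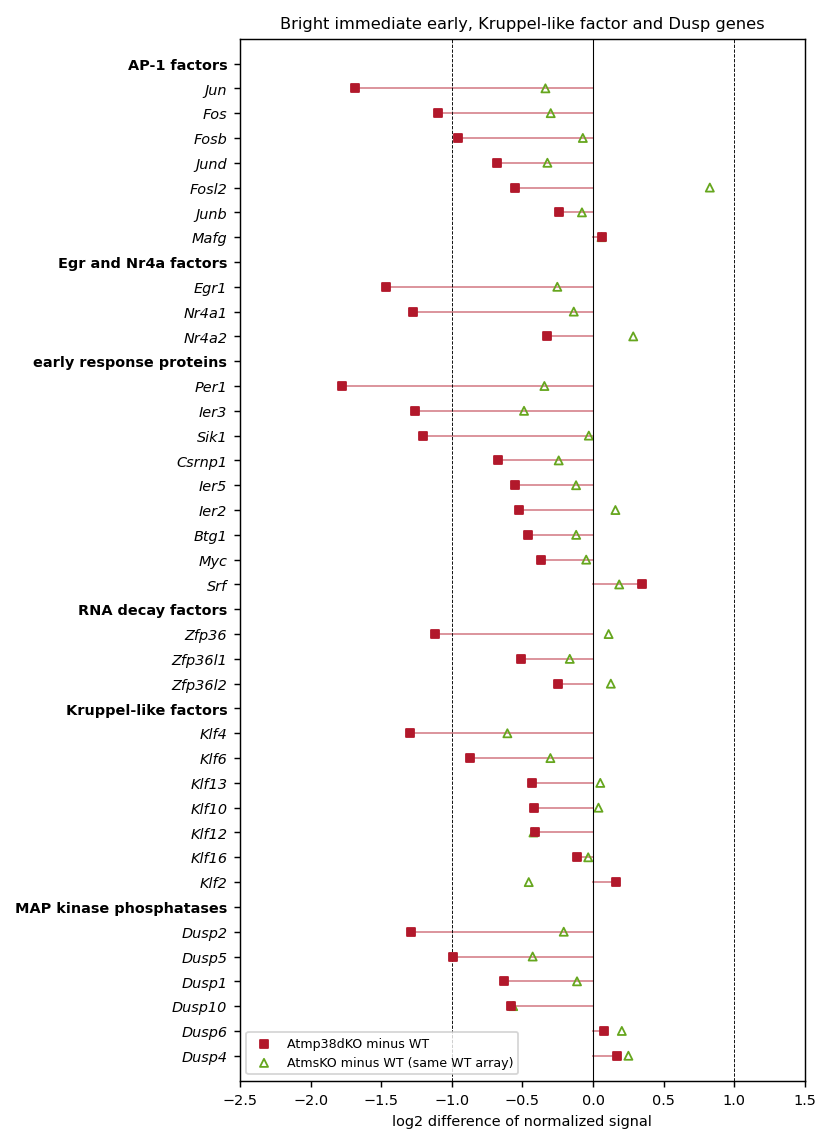
Log2 difference from WT of each bright immediate early, Krüppel-like factor and Dusp gene for Atmp38dKO (red squares) and AtmsKO (green triangles), which share 1 WT array, with dashed lines at 2-fold. On the Atmp38dKO array 30 of the 35 genes lay below 0, and 10 lay at or beyond 2-fold lower.

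RefSeq promoter windows (GRCm38.p6, 250 bases before to 50 after the start) were read for these genes, and windows are shown for 3 of them because each holds letters of a site on which MAP kinase signals are known to converge. Capitals mark the CArG box, bound by serum response factor, in Zfp36 (chr7:28379179-28379478, minus strand) and in Dusp5 (chr19:53528895-53529194, plus strand, a pair of boxes side by side), and the cyclic AMP response element TGACGTCA in Dusp1 (chr17:26508423-26508722, minus strand).
Zfp36: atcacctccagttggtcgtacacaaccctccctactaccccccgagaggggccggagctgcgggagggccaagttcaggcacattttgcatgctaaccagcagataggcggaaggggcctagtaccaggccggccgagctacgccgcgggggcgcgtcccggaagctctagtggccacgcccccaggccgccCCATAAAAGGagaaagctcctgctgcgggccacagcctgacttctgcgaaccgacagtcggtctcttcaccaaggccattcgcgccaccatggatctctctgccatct
Dusp5: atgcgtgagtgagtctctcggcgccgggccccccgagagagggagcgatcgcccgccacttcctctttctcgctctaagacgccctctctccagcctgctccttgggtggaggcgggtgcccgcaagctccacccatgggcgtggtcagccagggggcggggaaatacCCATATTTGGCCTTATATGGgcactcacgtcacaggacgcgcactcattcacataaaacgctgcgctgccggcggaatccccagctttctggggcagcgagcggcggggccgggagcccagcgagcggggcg
Dusp1: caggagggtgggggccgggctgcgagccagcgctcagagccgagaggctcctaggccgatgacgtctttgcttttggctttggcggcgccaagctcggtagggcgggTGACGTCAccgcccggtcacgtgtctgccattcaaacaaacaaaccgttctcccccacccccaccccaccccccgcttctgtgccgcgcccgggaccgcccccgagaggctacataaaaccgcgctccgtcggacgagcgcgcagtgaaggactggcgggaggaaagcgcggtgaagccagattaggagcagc
The CArG box stands 58 bases before the start in Zfp36 and begins 82 bases before it in Dusp5. Of all 32851 windows, 1.63% held a CArG box and 1.79% held TGACGTCA on either strand, and of the 3488 windows of bright genes 1.38% and 3.35% did. Of 31 windows of 27 bright immediate early, Krüppel-like and Dusp genes, 3 held a CArG box (Dusp5, Srf and Zfp36) and 1 held TGACGTCA (3.23%). The AP-1 letters TGANTCA were in 2 of them (6.45%, against 7.81% of all windows and 4.70% of those of bright genes). Windows for Hes1, Hey1 and Sik1 were not used here.

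The largest falls in signal among named genes were those of Hes1 and Hey1, basic helix-loop-helix repressors that Notch signaling induces, Hes1 being also a target of TNF and NF-κB. Hes1 read 1077, 697 and 243 on WT, AtmsKO and Atmp38dKO (-2.36, 5.14-fold lower), and Hey1 read 997, 681 and 231 (-2.33, 5.01-fold lower). Both had a single probe, and both passed the limit on the WT array only. In both the AtmsKO value lay between the others and nearer to WT (-0.55 and -0.47). Among genes of the NF-κB and TNF list, 15 of 71 were bright, 11 of them lower, with a median of -0.51. Those with the larger differences were the nuclear inhibitor Nfkbid (1001, 883 and 608; -0.93), the GTPase gene Rhob (2662, 1806 and 1749.8; -0.82), the factor Cebpb (1138, 1014 and 752; -0.81) and the subunit Rela (1049.6, 799 and 793; -0.62). Rel, Tnfrsf1b and Chuk differed by -0.06, 0.05 and 0.11. Pim1, a kinase induced by cytokine signals through STAT5, read 936, 1134 and 363 (-1.58), the AtmsKO array being the highest.

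Heat shock and chaperone genes split by family. Of 50 listed genes 35 were bright, with 5 at least 2-fold lower, 0 at least 2-fold higher and a median of -0.19. Over all 4722 bright genes 31 were lower and 24 higher by this measure, and the median was -0.02. The 14 dimmer members had a median of -0.15. Of these 2 were at least 2-fold lower and 0 higher, against 3.92% and 3.46% of all dimmer genes. All 5 bright genes at least 2-fold lower were of the stress-inducible Hsp70, Hsp110 and Hsp40 families. Hspa1a, an inducible Hsp70 gene, read 11889, 4782 and 3383 on WT, AtmsKO and Atmp38dKO (-2.03, 4.08-fold lower), and its neighbor Hspa1b read 6430, 2691 and 1784 (-2.06, 4.18-fold lower). Their coding sequences are nearly the same, and although their probes matched at no more than 21 of 60 bases in any register, a signal of one transcript at both probes was not tested. Hsph1, the Hsp110 gene, read 7005, 2738 and 2958 (-1.46), and its 2 other probes read 1724, 638 and 547 (-1.87) and 225, 75.4 and 78.4 (-1.74). Dnajb1, the Hsp40 partner of inducible Hsp70, read 21834, 13095 and 10345 (-1.29), and Dnajb4 read 3646, 2378 and 2045 (-1.05). For Hspa1a, Hspa1b and Hsph1 the AtmsKO array was also low, at scaled differences of -1.24, -1.18 and -1.28 from the same WT array.

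The remaining chaperones were closer to WT. The endoplasmic reticulum Hsp70 gene Hspa5 read 7543, 5726 and 4527 (-0.95) and its cochaperone Dnajb9 read 2479, 1878 and 1588 (-0.86). Hsp90aa1, the inducible Hsp90 gene, read 2978, 2145 and 2036 (-0.76), whereas the constitutive Hsp90ab1 and Hspa8 differed by -0.31 and -0.38 and the mitochondrial Hspa9 by -0.04. Regulators and cochaperones were mostly above WT, 6 of 7 bright genes being higher with a median of 0.21, and included Fkbp4 at 1319, 1055 and 1812 (0.24). The exception was Bag3, a cochaperone of Hsp70, at 566, 338 and 400.4 (-0.71). Of 9 bright genes of chaperonins and small heat shock proteins 5 were higher, and their range was -0.31 (Hspe1) to 0.32 (Cct5). The 11 bright genes of the unfolded protein and integrated stress response, which include Hspa5 and Dnajb9, had a median of -0.10, with Atf4 at -0.53, Calr at -0.10 and Ddit3 at 0.24.

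**Figure D3:**
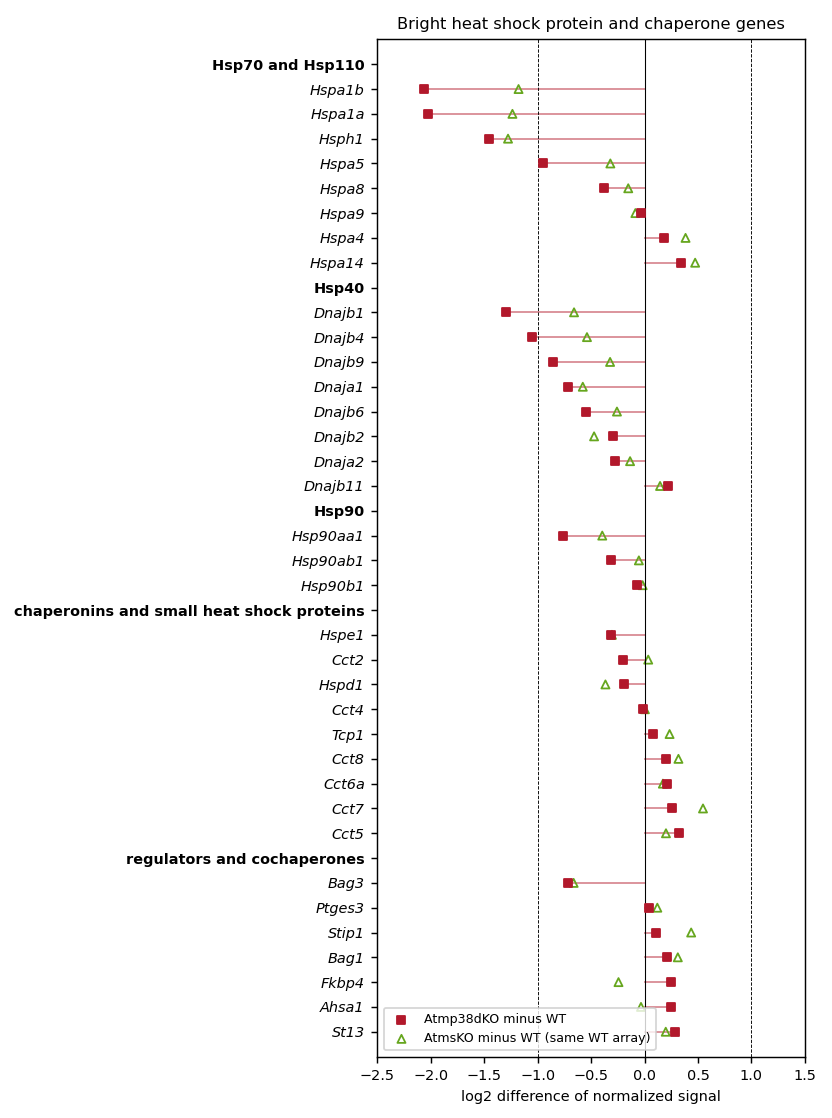
Log2 difference from WT of each of the 35 bright heat shock protein and chaperone genes for Atmp38dKO (red squares) and AtmsKO (green triangles), which share 1 WT array, with dashed lines at 2-fold. The squares beyond the left dashed line are Hspa1b, Hspa1a, Hsph1, Dnajb1 and Dnajb4, and the chaperonin genes lie on both sides of 0.

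Promoter windows of 4 chaperone genes are shown because they hold the heat shock element letters. All 4 genes were lower, from Hspa1b to Hspe1, the gene of the mitochondrial cochaperonin, and other genes with these letters were higher, among them Cct5 (0.32), Fkbp4 (0.24) and Cct6a (0.21). Capitals mark GAANNTTC in Hspa1a (chr17:34972107-34972406) and Hspa1b (chr17:34959189-34959488), and a longer form, the same letters with 1 further repeat at the same spacing, in Hsph1 (chr5:149636266-149636565) and, as overlapping matches, in Hspe1 (chr1:55087898-55088197). The first 3 are on the minus strand and the last on the plus strand.
Hspa1a: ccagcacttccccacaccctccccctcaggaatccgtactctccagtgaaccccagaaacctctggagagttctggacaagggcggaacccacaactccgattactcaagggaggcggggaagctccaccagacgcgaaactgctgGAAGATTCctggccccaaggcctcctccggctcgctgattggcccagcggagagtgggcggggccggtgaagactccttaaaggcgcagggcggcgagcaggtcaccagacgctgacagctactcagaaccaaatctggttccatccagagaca
Hspa1b: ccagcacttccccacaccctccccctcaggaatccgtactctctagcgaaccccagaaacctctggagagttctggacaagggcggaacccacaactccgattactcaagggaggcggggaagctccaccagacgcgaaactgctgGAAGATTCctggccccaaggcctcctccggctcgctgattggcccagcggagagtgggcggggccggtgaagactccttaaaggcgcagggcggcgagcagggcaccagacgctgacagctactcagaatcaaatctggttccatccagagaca
Hsph1: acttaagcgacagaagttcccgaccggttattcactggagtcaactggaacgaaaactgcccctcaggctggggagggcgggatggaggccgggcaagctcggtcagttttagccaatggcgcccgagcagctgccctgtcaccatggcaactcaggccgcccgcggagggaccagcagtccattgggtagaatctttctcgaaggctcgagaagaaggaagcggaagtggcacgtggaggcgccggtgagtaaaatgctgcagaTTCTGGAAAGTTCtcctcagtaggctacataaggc
Hspe1: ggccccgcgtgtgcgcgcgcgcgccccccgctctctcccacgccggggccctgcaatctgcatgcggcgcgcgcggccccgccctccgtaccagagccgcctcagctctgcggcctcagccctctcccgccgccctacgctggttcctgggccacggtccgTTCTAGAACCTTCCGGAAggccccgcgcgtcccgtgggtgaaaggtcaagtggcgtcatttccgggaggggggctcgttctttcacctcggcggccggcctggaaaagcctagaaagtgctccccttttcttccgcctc
Hspa1a and Hspa1b were identical at 296 of the 300 bases, and in both the letters begin 104 bases before the start. In Hsph1 the letters begin 16 bases after the transcription start used for this window, and in Hspe1 they begin 89 bases before the start. The shorter form, GAANNTTC or TTCNNGAA, was present in 15.1% of all windows and in 11.9% of the 3488 windows of bright genes, and the longer form in 0.603% and 0.688%. Of 39 windows of 29 bright chaperone genes, 15 held the shorter form (38.5%) and 6 the longer (15.4%). The 13 chaperone genes with the shorter form had a median log2 difference of -0.55, 10 being lower and 4 at least 2-fold lower. The 16 without it had a median of 0.10, with 6 lower and 1, Dnajb1, at least 2-fold lower. Over all bright genes the medians were -0.00 for 388 genes with these letters and 0.01 for 2338 without. Of these 388 and 2338 genes, 6 and 18 were at least 2-fold lower. Hspe1 and Hspd1, which hold the longer form, differed by only -0.31 and -0.19.

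Genes with at least 2-fold higher signal on the Atmp38dKO array were examined next. Of these 24 genes, 22 were below 500 on WT and passed the limit only through the array where they were higher, so this count carries no weight. The immediate early, Krüppel-like, Dusp and heat shock lists held 0 of the 24, near their share of 70 among all 4722 bright genes. They held 15 of the 31 lower genes, but 14 of the 31 passed on WT only. Among genes bright on both arrays 17 were at least 2-fold lower, and 6 of these were immediate early, 1 Krüppel-like, 1 Dusp and 5 heat shock genes. S100a4, the gene of a calcium-binding protein of motile and myeloid cells, was 1 of the 2 higher genes bright on both arrays, at 713, 1071 and 1883 on WT, AtmsKO and Atmp38dKO (1.19, 2.28-fold higher). Pank2, of coenzyme A synthesis, was the other at 518, 807 and 1288 (2.14-fold higher), but its other probe lay in the opposite direction.

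The rises with the largest differences, among genes whose other probes did not disagree, were in genes of varied function. Ints5, a subunit of the Integrator complex that processes small nuclear RNAs, read 179, 122 and 722 (1.80). Dnajc6, an auxilin gene of clathrin uncoating, read 228, 549 and 797 (1.59), and Mrps10, of the mitochondrial ribosome, read 367, 444 and 1253 (1.56). Glo1, the glyoxalase that detoxifies methylglyoxal, read 182, 183 and 535 (1.34), and its other probes differed by 1.03 and 0.70. Igf2r, the imprinted receptor that clears IGF2, read 254, 566 and 691 (1.23). Cd28, Mettl18, Rilpl1, Far2, Csrp2 and Rex1bd differed by 1.46, 1.32, 1.30, 1.22, 1.16 and 1.14. Cd28, Glo1 and Rilpl1 were near WT on the AtmsKO array (-0.13, 0.09 and -0.06), whereas Igf2r and Dnajc6 were higher there as well (1.23 and 1.35).

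Second probes were compared for both directions. Of 24 higher genes 11 had another probe well above background, and in 6 all of these lay in the same direction. Of 31 lower genes 10 had one, and in 7 all lay in the same direction. The largest single difference, that of Esr1, the estrogen receptor gene, fell outside the rule for naming genes and was chosen after its values were seen. Its bright probe read 48.1, 1375 and 857 (3.94), but 4 further probes above background read between 14.5 and 136 on WT and differed by 0.59, -0.37, 0.09 and 1.12. A probe annotated only by a clone name read 779, 96.2 and 95.2 (-3.25) and had no second probe. Lower genes outside the stress lists, besides Hes1, Hey1 and Pim1, included Spaca6 (-1.35), the linker histone gene H1f2 (1503, 2228 and 819; -1.09), Ell2 (-1.11), Rgcc (-1.08), Krtap4-8 (-1.06), Utp14b (-1.05) and the cyclin gene Ccnl1 (-1.01, with 4 of 4 other probes lower). Gosr2, Csnk2a2 and Bcl7b, at -1.41, -1.11 and -1.08, each had another probe in the opposite direction.

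**Figure D4:**
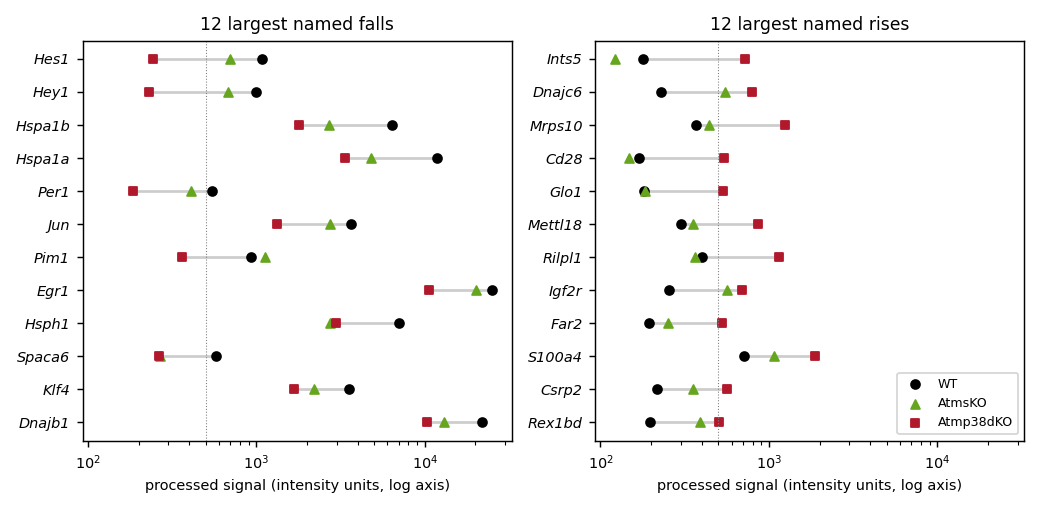
Processed signal (horizontal log axis, intensity units) on the WT (black circles), AtmsKO (green triangles) and Atmp38dKO (red squares) arrays, 1 array each, of the 12 named genes with the largest falls (left) and rises (right) from WT to Atmp38dKO; the dotted line marks the limit of 500. Falls such as Hspa1a, Jun and Egr1 lie wholly above the limit. Those of Hes1, Hey1, Per1, Pim1 and Spaca6 end below it, having passed the limit through the WT array only. All rises but S100a4 start below it, having passed the limit through the Atmp38dKO array only.

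The p38 pathway itself was little changed in signal. Of 31 listed genes 10 were bright, 0 of them differed at least 1.5-fold, and the median was -0.06, with its sign not kept across scalings (-0.07 to 0.03). The upstream kinase gene Map2k3 read 1091, 1364 and 1332 (0.07) and the adaptor gene Tab2 read 1600.5, 1835 and 1363 (-0.45), with a second bright probe at -0.06. Of substrates, Creb1 was lowest at 505, 396 and 402 (-0.54), followed by Elk4 (-0.36) and Mef2d (-0.19), while Mknk2 and Ddit3 differed by 0.08 and 0.24. Dimmer probes of Creb1 (1.46, 0.62 and -0.58) and Elk4 (0.64, 0.34, -0.41 and -0.34) lay on both sides of 0, so neither gene had a settled direction.

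Among other gene groups the list medians were small, although genes within a list could differ more. In the glycolysis and hypoxia list the 4 bright hypoxia response genes were all lower, with a median of -0.45, among them Ddit4 (-0.53) and Vegfa (-0.59, with other bright probes at -0.99 and -0.86). The 16 bright genes of glycolysis and lactate had a median of -0.02, with Pkm at -0.67 (other bright probes at -0.73 and 0.17) and Pdk1 at 0.72. The 16 dimmer genes of this list had a median of 0.14. Bright cell cycle genes were slightly higher, 25 of 33 bright genes lying above 0 with a median of 0.09, against 2183 of all 4722. Their 45 dimmer members did not share this direction, 22 being higher and 23 lower with a median of -0.04. The bright members included the licensing factor Cdt1 (299.9, 392 and 512; 0.56), Top2a (581, 757 and 1009.6; 0.58) and Plk4 (294, 563 and 689; 1.01), and Top2a and Plk4 each had another probe in the opposite direction (-0.41 and -0.79). Subunits of respiratory complex I were higher in 21 of 27 bright genes, with a median of 0.15, whereas the medians of complex IV and ATP synthase were 0.03 and 0.02. Cytoplasmic ribosomal protein genes were lower in 63 of 78, but within -0.24 to 0.16 and with a median of -0.12, the value also found over all 493 genes with a signal above 10000. Under the alternatives tried, this median lay between -0.13 and -0.02.

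Genes of stem cell identity mostly stayed near WT. Of 20 bright transcription factor genes of HSCs, 12 were lower and the median was -0.09, and besides Hes1 the farthest were Hoxa9 (1109.95, 943 and 847; -0.61), Erg (-0.41) and Zfx (0.65). Gata2, Meis1, Runx1, Myb and Tal1 lay between -0.11 and 0.16. Procr, which marks LT-HSCs, read 546, 525 and 449 (-0.50), in a list of 11 surface genes with a median of 0.01. Bright genes of the interferon list (19) had a median of 0.07, with the receptor chain Ifngr2 at 305, 272 and 613 (0.79). The medians of p53 targets (9 genes), antioxidant genes (21) and PI3K and mTOR genes (15) were 0.03, 0.05 and -0.03, and 0 genes of these lists differed 1.5-fold. At the upper end of the signal range, the 5 probes with the highest signals, annotated to Rn18s, Dennd4a, Pak4, Sgsh and Sp110, differed by -0.28, -0.22, -0.34, -0.11 and -0.23. Other probes of Dennd4a read between 30.0 and 2254 on WT against 128401 at this one, so the annotation of the brightest probe may not name its transcript.

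**Figure D5:**
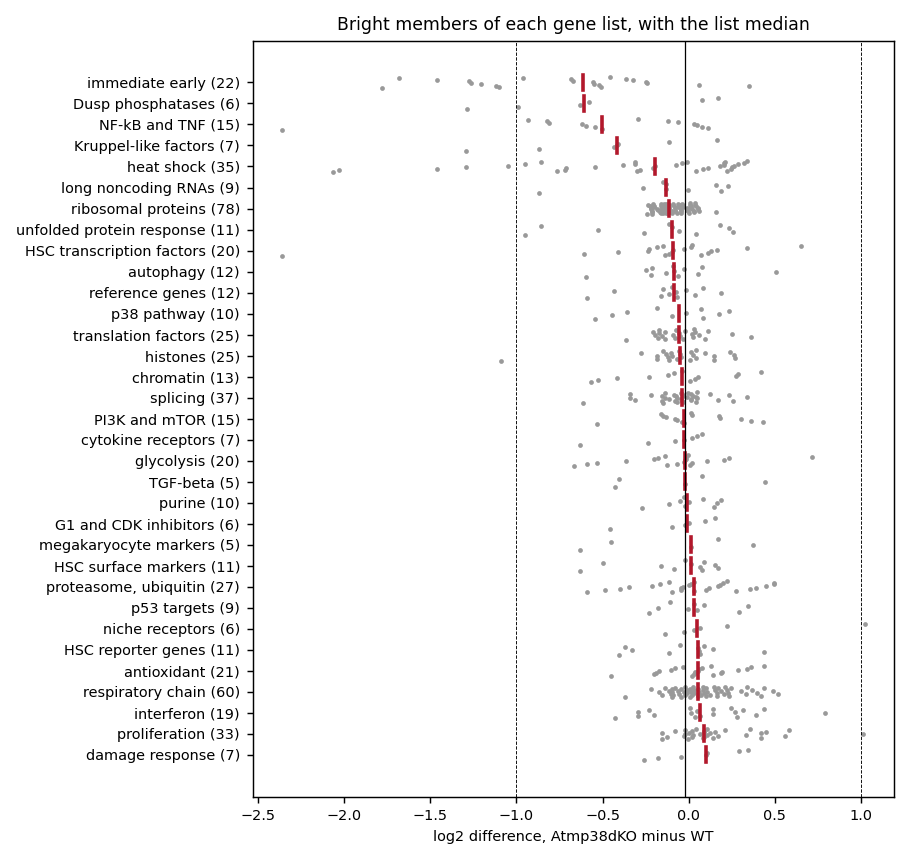
Log2 difference between the Atmp38dKO and WT arrays for the bright members of each gene list with 5 or more of them (gray points, number in parentheses), with the list median (red bars), the median of all bright genes (solid line) and 2-fold (dashed lines). The immediate early, Dusp, NF-κB and TNF, and Krüppel-like lists have medians between -0.61 and -0.42, the heat shock list -0.19, and all other lists lie between -0.13 and 0.10.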

How the data were processed

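LT-HSC RNA of each genotype was hybridized to 1 Agilent array, and groups follow the sample titles. Per the file headers the scanner files hold background-subtracted, detrended intensity made for the authors with Agilent Feature Extraction 11.5.1.1, not normalized between arrays, mean and local background intensity, and other columns of flags deposited per spot. The log2 values the authors deposited equal the scaling below within 0.02 for 99.97% and 99.8% of probes on WT and Atmp38dKO, after a constant offset. Outlier and control spots were left out and spots of a probe averaged. Log2 intensity minus each array's 75th percentile was compared, so a change in total RNA is not seen. Probes took RefSeq names (GRCm38.p6) by accession (33889), symbol (9462) or synonym (489), and 12765 kept the file's name. Named genes are Atm and Mapk14, the 12 largest rises and falls whose other probes did not disagree, the 5 brightest genes, the probes at the limit and up to 4 genes with the largest differences per list, with further list members by role. The members, lists and rules were chosen with earlier results of these data known. Tools were Python 3.11.15, pandas 2.3.3, statsmodels 0.14.6 and limma 3.58.1, and counting was tested on simulated data. With 1 array per genotype the number of arrays limits the precision. Alternatives were other centering, quantile, loess and normexp (offset 50) normalization, the authors' log2 values, gene medians and brightness limits of 250 and 1000.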

Additional observations from a re-analysis of the deposited data

How the results depend on the processing

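No paired analysis was possible because every genotype had a single array, and for the same reason none could be left out. All 29 named genes past 2-fold kept their direction under each of the 8 alternatives that gave a value for them. The counts of 24 higher and 31 lower genes depended on the brightness limit, becoming 62 and 64 at 250 and 4 and 18 at 1000. Other normalizations gave 17 to 24 higher and 23 to 32 lower, and the 40 genes past 2-fold after normexp were all among the 55 past it here. The share of second probes in the same direction fell from 100% to 73.5% of 49 pairs at a limit of 250. The immediate early median of -0.61 became -0.51 after normexp. The heat shock median of -0.19 became -0.11 after normexp and -0.28 at a limit of 1000. The causes were not tested, apart from the number of genes that a limit lets in. Single probes with WT signal near the limit have the least room above background.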
